A study of Mus musculus with 24 samples.

Results

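Skeletal muscle contractile and metabolic genes were followed in fat lying under the skin at the 4th mammary gland, taken from C57BL/6 mice. The set was named gene by gene by symbol, without reference to a threshold but with earlier results of these data known. All 38 named genes were found among the 39017 genes of the deposited count matrix. Of these genes, 9 encode thick filament proteins, 8 thin filament proteins, 10 titin and Z disc proteins, 5 calcium handling proteins, 2 creatine kinases, and 4 proteins of oxygen storage and energy metabolism. Total RNA from flash frozen fat was depleted of ribosomal RNA and sequenced, and 24 libraries formed 6 groups of 4 by diet and position. The groups were HFD and Chow fat of mice labelled as having no tumor, HFD and Chow fat contralateral to a tumor, and HFD and Chow fat labelled peritumoral. The labels give the diets by these names alone and state neither the ages of the mice, the tumor model nor whether a library holds fat of 1 animal. The p-values below therefore measure the spread between libraries.

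Skeletal muscle fibres shorten when myosin motors of the thick filament pull on actin of the thin filament, with titin spanning each side of the sarcomere and Z discs anchoring it. Calcium released from the sarcoplasmic reticulum through the ryanodine receptor acts on troponin to start contraction, and creatine kinase and glycogen breakdown refill the ATP that is used. Fast and slow fibres carry different myosins and troponins, and the inguinal fat pad of the mouse lies between the skin and the muscles of the abdominal wall and thigh. In RNA from a whole piece of fat, a lower level of these genes from fewer muscle cells cannot be told apart from less RNA per muscle cell.

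The promoters of 4 of these genes are shown because the levels set them apart. The transcripts of Myh4, the motor of the fastest (type 2B) fibres, and Ckm, the cytosolic creatine kinase of muscle, were nearly absent from most libraries. Those of Acta1, skeletal alpha actin, and Myl1, a fast alkali light chain of myosin, were counted in every library. Each line holds the 250 bases before a RefSeq transcription start of build GRCm38.p6, written in the direction of the gene. Capitals mark E-boxes (CANNTG), the motif that MyoD-family factors bind, and MEF2 sites.
Myh4 promoter (chr11:67237562-67237811, plus strand): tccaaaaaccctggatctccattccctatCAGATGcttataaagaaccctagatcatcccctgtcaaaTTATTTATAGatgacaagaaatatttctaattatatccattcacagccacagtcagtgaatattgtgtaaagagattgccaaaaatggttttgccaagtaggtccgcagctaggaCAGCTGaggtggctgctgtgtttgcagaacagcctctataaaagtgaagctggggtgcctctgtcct
Ckm promoter (chr7:19410844-19411093, plus strand): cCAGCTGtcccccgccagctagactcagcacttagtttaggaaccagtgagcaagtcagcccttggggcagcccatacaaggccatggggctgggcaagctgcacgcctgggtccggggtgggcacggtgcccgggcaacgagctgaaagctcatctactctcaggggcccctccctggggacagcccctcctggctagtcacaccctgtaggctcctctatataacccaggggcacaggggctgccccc
Acta1 promoter (chr8:123894776-123895025, minus strand): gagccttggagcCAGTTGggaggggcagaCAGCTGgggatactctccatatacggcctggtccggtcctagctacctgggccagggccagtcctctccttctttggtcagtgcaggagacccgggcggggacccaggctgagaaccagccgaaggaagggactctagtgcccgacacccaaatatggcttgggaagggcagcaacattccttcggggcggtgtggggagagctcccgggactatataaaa
Myl1 promoter (chr1:66945057-66945306, minus strand): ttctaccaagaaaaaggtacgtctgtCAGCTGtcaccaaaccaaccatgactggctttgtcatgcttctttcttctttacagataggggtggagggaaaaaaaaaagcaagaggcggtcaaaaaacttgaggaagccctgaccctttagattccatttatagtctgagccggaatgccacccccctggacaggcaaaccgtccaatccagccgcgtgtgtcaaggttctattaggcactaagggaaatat

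RefSeq windows were matched for 29 of the 38 genes, some with several starts (35 windows in all). The E-box form CAGCTG, a subset of CANNTG that reads the same on both strands, was in 14 of these 29 genes, and in 45.7% of their windows against 13% of all 32851 windows of that length. A MEF2 site on either strand was in 17.1% of the muscle windows and in 2.92% of all windows, and CANNTG of any form in 80% and 66.2%. TATAAA on the sense strand was in 11.4% of the muscle windows and in 7.59% of all windows. Of the 4 promoters shown, each holds a CAGCTG, and the MEF2 site is in that of Myh4. A match describes letters and not binding.

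The fat of every library carried adipocyte transcripts, with Adipoq between 959 and 2780 CPM (read counts scaled to library size). Library totals ran from 9.13 to 18.2 M counts, and the Chow peritumoral and Chow contralateral libraries (9.13 to 14.46 and 11.69 to 13.85 M) were shallower than the others (14.98 M and above). Muscle transcripts were a small and very uneven share of them. The 38 genes together took between 0.00619% of the counts of a library, in Chow no tumor library 1, and 0.674%, in Chow contralateral library 1.

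Their summed level was 107, 89.1, 98.7 and 93.7 CPM in the HFD no tumor libraries and 62, 228, 1480 and 70.4 CPM in the Chow no tumor libraries, in the order of the replicate numbers. It was 101, 94.9, 95.6 and 130 CPM in HFD contralateral fat and 6250, 4400, 138 and 3490 CPM in Chow contralateral fat. It was 89.4, 414, 66.9 and 85.2 CPM in HFD peritumoral fat and 89.1, 3530, 579 and 87.6 CPM in Chow peritumoral fat. The level was even on HFD apart from peritumoral library 2. On Chow it was uneven at all 3 positions, and every Chow group held both libraries near the HFD sum and libraries far above it. Chow contralateral library 3, in particular, lay far below the other 3 of its group. A like sum did not mean a like level of each gene. Ttn was 22.1 and 26 CPM in Chow peritumoral libraries 1 and 4, against 4.15, 6.28 and 7.75 CPM in HFD peritumoral libraries 1, 3 and 4. In Chow no tumor libraries 1 and 4 it was 5.03 and 6.02 CPM, against 5.1 to 11.3 CPM in HFD no tumor fat. The medians and calls that single libraries changed are given below with and without them.

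**Figure D1:**
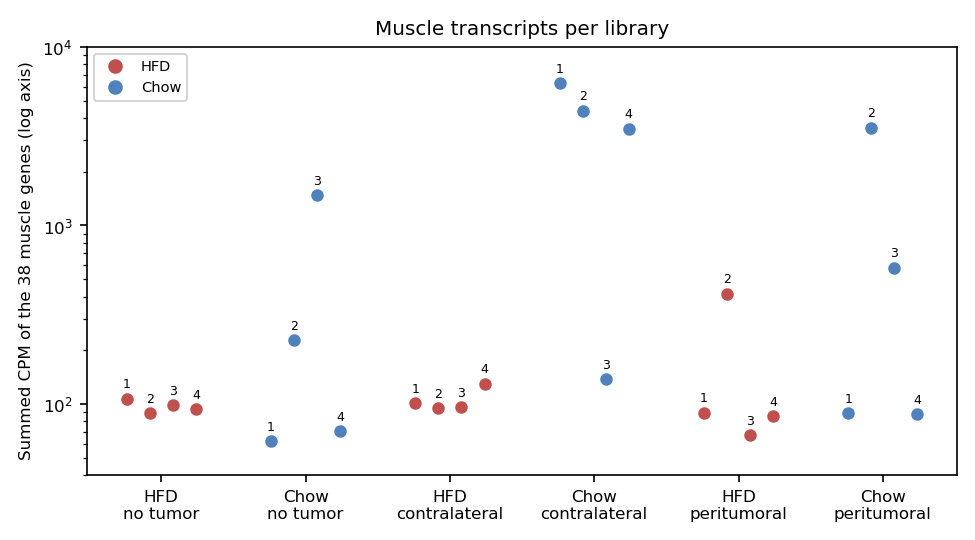
Summed CPM of the 38 muscle genes in each of the 24 libraries on a log axis, with HFD (red) left of Chow (blue) at each position; the digits are replicate numbers. Chow contralateral libraries 1, 2 and 4 lie between 3490 and 6250 CPM, whereas library 3 of that group, at 138 CPM, lies just above the HFD contralateral libraries at 94.9 to 130 CPM.

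The genes were high in the same few libraries. Chow contralateral library 1 was the highest of the 24 for 23 of the 38 genes, Chow peritumoral library 2 for 5 (Ckmt2, Myh2, Myh7, Tnnt1 and Xirp2), Chow contralateral library 4 for 4 (Myh1, Actn2, Mb and Smpx) and Chow contralateral library 2 for 3 (Myl1, Mybpc1 and Tcap). The other 3 highest values were Tnnc1 in HFD no tumor library 4, Tnni1 in HFD contralateral library 2 and Myoz2 in HFD peritumoral library 2, none of which reached 1 CPM. Of the 38 genes, 33 reached 1 CPM in some library and 26 reached 10 CPM.

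**Figure D2:**
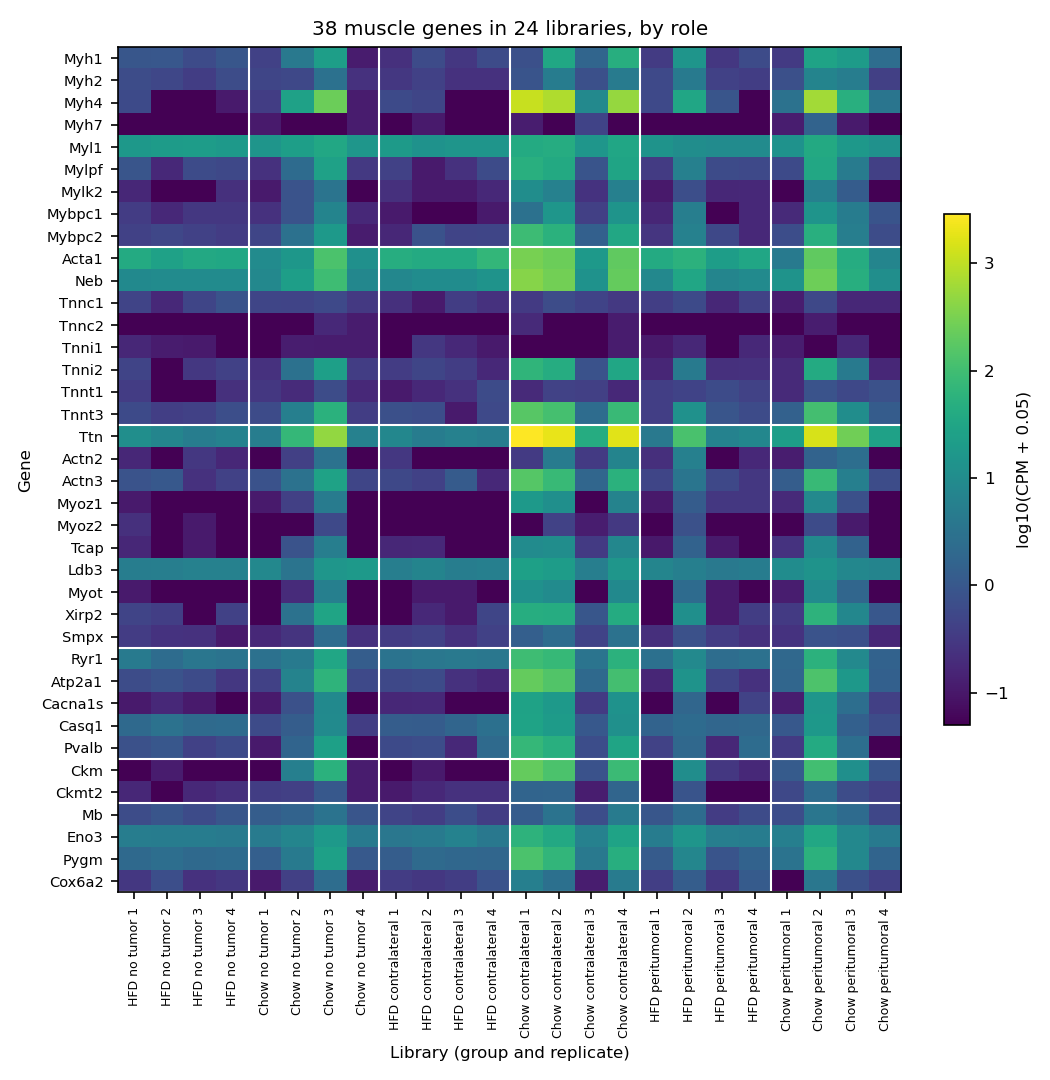
log10(CPM + 0.05) of the 38 muscle genes (rows, grouped by role and separated by white lines) in the 24 libraries (columns, HFD left of Chow at each position). Chow contralateral libraries 1, 2 and 4 and Chow peritumoral library 2 are bright in most rows, whereas Acta1, Neb, Myl1, Ldb3 and Eno3 stay above 1 CPM in every column and Myh7, Tnnc2 and Tnni1 are dark in nearly all.

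Among the thick filament genes Myh4 (ENSMUSG00000057003, mm10 chromosome 11, 67238029 to 67260446) had the widest range. It stood at 0.546, 0.434, 0 and 0 CPM in HFD contralateral fat, against 1150, 763, 8.63 and 509 CPM in Chow contralateral fat. In HFD peritumoral fat it was 0.504, 32.9, 0.853 and 0 CPM, against 3.06, 618, 49.8 and 3.5 CPM in Chow peritumoral fat. The contralateral groups did not overlap, whereas HFD peritumoral library 2 lay among the Chow peritumoral libraries.

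Myl1 (ENSMUSG00000061816, chromosome 1, 66924295 to 66945404) varied the least of the genes that were counted in every library at 1 CPM or more. It was 19.1, 13.5, 15.3 and 15.1 CPM in HFD contralateral fat and 40.4, 43.2, 15.9 and 31.9 CPM in Chow contralateral fat, and its highest library stood 4.4-fold above its lowest. Mylpf, the fast regulatory light chain, instead fell to between 0.0619 and 0.562 CPM in HFD contralateral fat, against 50.3, 38.3, 0.816 and 30.4 CPM in Chow contralateral fat. Myh1 and Myh2, the motors of type 2X and 2A fibres, reached 48.6 CPM in Chow contralateral library 4 and 6.91 CPM in Chow peritumoral library 2, against at most 0.562 and 0.372 CPM in HFD contralateral fat. The light chain kinase Mylk2 and the myosin binding proteins Mybpc1 and Mybpc2 were likewise below 1 CPM in every HFD contralateral library and reached 10.8, 15.7 and 92.7 CPM in their highest Chow contralateral library.

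Among the thin filament genes Acta1 (ENSMUSG00000031972, chromosome 8, 123891767 to 123894736) was never below 4.49 CPM. It was 41.1, 26.1, 37.4 and 33.3 CPM in HFD no tumor fat, against 9.82, 16.3, 127 and 11.9 CPM in Chow no tumor fat. In contralateral fat it was 45.3, 41, 39.8 and 70.3 CPM on HFD, against 307, 248, 18 and 193 CPM on Chow. In peritumoral fat it was 40, 57.5, 22.4 and 32.9 CPM on HFD, against 4.49, 200, 43.1 and 7.35 CPM on Chow. The HFD libraries formed a narrow band at each position, and at each position at least 1 Chow library lay below that band and at least 1 above it. Acta1 shares most of its coding sequence with Acta2, the smooth muscle actin, which stood at 167 to 531 CPM in these libraries, so reads may have been divided between them.

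Neb, the ruler protein nebulin, ran at 7.83 to 13.9 CPM in HFD contralateral fat, against 397, 280, 13.3 and 217 CPM in Chow contralateral fat. The fast troponins followed the pattern of Myh4. Tnnt3 (chromosome 7, 142498836 to 142516009), which ties the troponin complex to tropomyosin, was 0.668, 0.619, 0.0616 and 0.499 CPM in HFD contralateral fat, against 169, 114, 2.31 and 83.3 CPM in Chow contralateral fat. Tnni2, the fast inhibitory subunit, reached 63.3 CPM in Chow contralateral library 1. Tnnc2, the fast calcium binding subunit, was counted almost nowhere, at most 0.135 CPM, and 74% of its exon bases are shared with Ube2c on the other strand.

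The 5 genes classed as slow (Myh7, Tnnc1, Tnni1, Tnnt1 and Myoz2) were close to 0 in nearly all libraries. Mybpc1, a myosin binding protein named for slow fibres, was not classed with them. Myh7, the slow and cardiac myosin, was at 0 in all HFD peritumoral libraries and at 0.068, 1.61, 0.06 and 0 CPM in the Chow peritumoral libraries, where 23 of its 25 counts came from library 2. Tnnc1, Tnni1 and Tnnt1, the slow troponins, and Myoz2, a Z disc protein of slow fibres, never reached 1 CPM. The 5 slow genes summed to at most 3.42 CPM in any library, in Chow peritumoral library 2, where the 14 fast genes summed to 1210 CPM.

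Titin took more counts than any other gene of the set in Chow contralateral fat, though not per kilobase. Ttn (ENSMUSG00000051747, chromosome 2, 76703980 to 76982547) was 7.83, 4.89, 5.98 and 5.24 CPM in HFD contralateral fat, against 2850, 2020, 44.5 and 1740 CPM in Chow contralateral fat, and these groups did not overlap. In peritumoral fat it was 4.15, 125, 6.28 and 7.75 CPM on HFD, against 22.1, 1480, 270 and 26 CPM on Chow, and HFD library 2 again lay among the Chow libraries. In no tumor fat it was 11.3, 7.13, 5.1 and 6.44 CPM on HFD, against 5.03, 74.4, 482 and 6.02 CPM on Chow. Counts scale with transcript length, and Ttn has 116824 exon bases. Per kilobase of exon, the mean level in Chow contralateral fat was 134 ± 87.1 CPM for Acta1, 101 ± 79.7 for Myh4, 75.7 ± 61.5 for Ckm, 66.1 ± 49.9 for Tnnt3 and 14.2 ± 10.1 for Ttn (SD, n = 4).

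Actn3, the fast alpha actinin, reached 161 CPM in Chow contralateral library 1, against at most 1.11 CPM in HFD contralateral fat. Myoz1, a calcineurin binding Z disc protein, was at 0 in all 4 HFD contralateral libraries, against 17.7, 11.5, 0 and 6.76 CPM in Chow contralateral fat. Over the groups that is at least 190-fold lower on HFD, taking 3 counts over the HFD group as the limit. Myot, Tcap and Xirp2, which bind actin filaments or titin at or near the Z disc, and Smpx, a small muscle protein, reached 12.6, 10.5, 59.4 and 3 CPM in their highest library, each on Chow. Ldb3, a PDZ and LIM protein of the Z disc, was the exception in being present at 3.38 CPM or more in every library, with 5.19 to 6.2 CPM in HFD no tumor fat against 8.08, 3.38, 16 and 18.3 CPM in Chow no tumor fat. Its Chow no tumor library 4, at 18.3 CPM, held only 70.4 CPM of the 38 genes together.

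Of the calcium handling genes, Atp2a1 (chromosome 7, 126445858 to 126463108), the calcium pump of fast fibres, was 0.486, 0.557, 0.185 and 0.125 CPM in HFD contralateral fat, against 210, 143, 2.04 and 108 CPM in Chow contralateral fat. Of its exon bases 21.9% overlap Rabep2 on the other strand. Ryr1, the calcium release channel, stayed between 3.22 and 4.19 CPM in HFD contralateral fat, against 96.7, 77.5, 3.4 and 56 CPM in Chow contralateral fat. The voltage sensor Cacna1s and the calcium buffer Pvalb reached 27.8 and 72.2 CPM. Casq1, the calcium store protein calsequestrin, behaved like Acta1 in no tumor fat, with 2.03, 3.05, 2.12 and 2.21 CPM on HFD against 0.559, 1.2, 9.25 and 0.32 CPM on Chow, where the HFD libraries lay above 3 of the 4 Chow libraries and below the other.

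The creatine kinases differed in abundance. Ckm (ENSMUSG00000030399, chromosome 7, 19411094 to 19421583) was 0, 0.0619, 0 and 0 CPM in HFD contralateral fat, against 210, 129, 0.748 and 88.6 CPM in Chow contralateral fat, that is 1 count against 5840 counts. It was 0, 10.8, 0.244 and 0.125 CPM in HFD peritumoral fat, against 1.09, 104, 11.8 and 0.817 CPM in Chow peritumoral fat. Of its exon bases 31.9% are shared with A930016O22Rik on the other strand. Ckmt2, the mitochondrial form of striated muscle, never passed 2.37 CPM.

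In oxygen storage and energy metabolism, Pygm, which breaks down muscle glycogen, was 1.21, 2.17, 1.85 and 1.81 CPM in HFD contralateral fat, against 126, 68.2, 4.08 and 47.6 CPM in Chow contralateral fat. Eno3 (ENSMUSG00000060600, chromosome 11, 70657202 to 70662513), the muscle enolase of glycolysis, was 3.76, 4.27, 6.34 and 3.93 CPM on HFD, against 58.7, 37, 6.05 and 28.7 CPM on Chow at that position, and was never below 3.76 CPM in any library. Mb, the oxygen store myoglobin, reached 4.72 CPM, and Cox6a2, a muscle subunit of cytochrome c oxidase, 5.49 CPM.

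**Figure D3:**
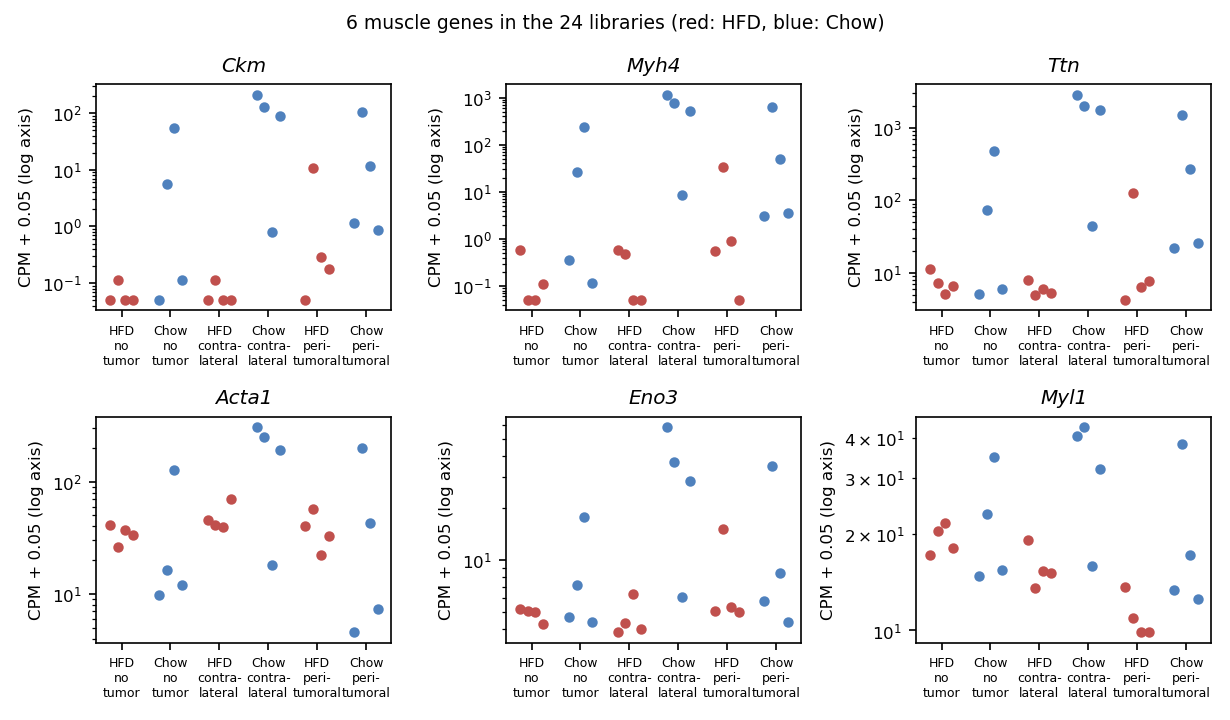
Levels of 6 muscle genes in the 24 libraries as CPM + 0.05 on log axes that differ between panels, with HFD (red) left of Chow (blue) at each position and replicates 1 to 4 from left to right within a group. Ckm and Myh4 are at or near 0 in most libraries, whereas Acta1, Eno3 and Myl1 stay at or above 3.76 CPM in all 24, and Chow contralateral library 3 is no higher than the highest HFD contralateral library for Acta1, Eno3 and Myl1.

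The 7 genes that held at least 1 CPM in every library were Acta1, Ttn, Neb, Myl1, Ryr1, Eno3 and Ldb3. Their ranges differed widely. The highest library over the lowest was 4.4-fold for Myl1, 7.4-fold for Ldb3, 15.6-fold for Eno3, 55.7-fold for Neb, 68.5-fold for Acta1, 79.5-fold for Ryr1 and 687-fold for Ttn. The ratio between members therefore changed with the amount of muscle transcript. Acta1 CPM was 579%, 838%, 666% and 1340% of Ttn CPM in HFD contralateral fat, against 10.8%, 12.3%, 40.5% and 11.1% in Chow contralateral fat.

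The libraries rich in muscle transcripts also differed in the division of their myosin transcripts between Myh4 and Myh1. Of the counts of Myh4 and Myh1 (the type 2X myosin) together, Myh4 took 99.9% in Chow contralateral library 1 (95% exact interval 99.9 to 100), with 10 Myh1 counts beside 17021 Myh4 counts. It took 95.7% in Chow contralateral library 2 (95.2 to 96.1), 83.6% in library 3 (76.7 to 89.1) and 91.3% in library 4 (90.7 to 91.9). In peritumoral fat the share was 68.9% in HFD library 2 (65.6 to 72.1), against 95.6% in Chow library 2 (95.2 to 96) and 70.7% in Chow library 3 (68 to 73.3). Chow no tumor libraries 2 and 3 stood at 85.9% (82.3 to 89.1) and 91.4% (90.5 to 92.2). The intervals cover counting error alone. Single libraries thus differed by more than counting error within the Chow contralateral group, and no test between groups was made on this share. Myh1, Myh2 and Myh4 lie side by side on chromosome 11 and are similar enough in sequence that the division of reads between them is uncertain.

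Levels relative to Ttn also differed between these libraries. Relative to Ttn CPM, Actn2 (the alpha actinin of all fibres) was 0.00952% in Chow contralateral library 1, against 0.234%, 0.611% and 0.406% in libraries 2, 3 and 4. Mybpc1 was 0.102% in library 1, against 0.779%, 0.763% and 0.845% in libraries 2, 3 and 4. Mb was 0.0404% in library 1, against 0.158%, 1.37% and 0.271% in libraries 2, 3 and 4. Chow contralateral library 1, the richest in Ttn, was therefore the poorest in all 3 relative to Ttn. The shares of library 3 rest on few counts, 4 of Actn2, 5 of Mybpc1 and 9 of Mb. Its Mb level, 0.612 CPM, lay within the HFD contralateral range of 0.31 to 0.616 CPM. In HFD peritumoral library 2 the shares were 4.62% for Actn2, 4.24% for Mybpc1 and 1.89% for Mb. Tnnt3 varied less, between 3.95% and 11.2% of Ttn CPM in the 9 libraries plotted.

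**Figure D4:**
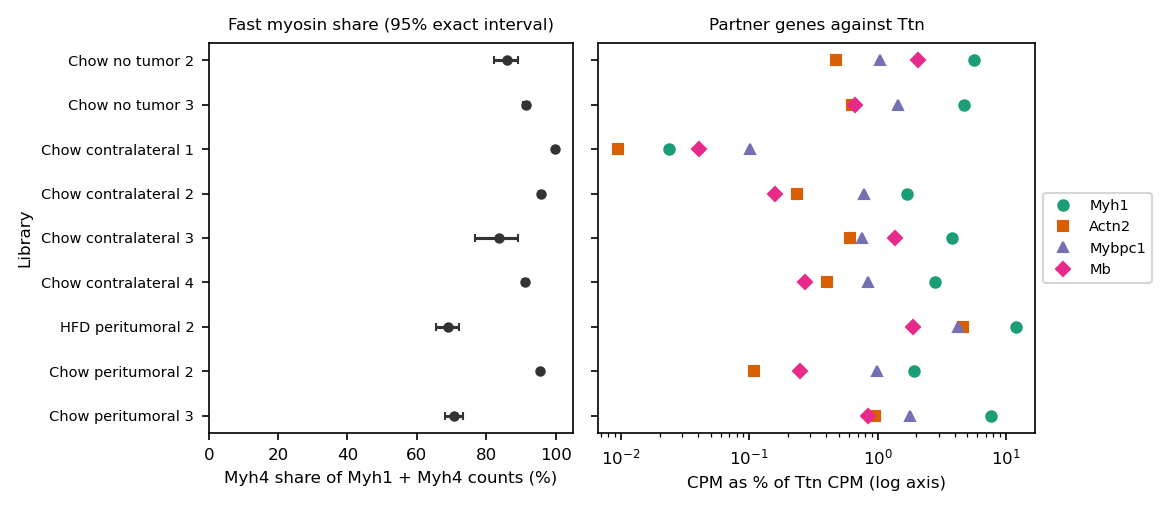
Fast myosin share and other muscle genes in the 9 libraries with at least 100 counts of Myh1 and Myh4 together; left, Myh4 share of those counts in percent with 95% exact intervals; right, CPM of Myh1, Actn2, Mybpc1 and Mb as a percent of Ttn CPM on a log axis. Chow contralateral library 1 has the highest Myh4 share (99.9%) and the lowest Myh1, Actn2, Mybpc1 and Mb relative to Ttn, and HFD peritumoral library 2 has the highest Actn2 (4.62%).

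HFD was compared with Chow at each position with edgeR's quasi-likelihood test across all genes, with adjusted p under 0.05 as the threshold. A mean of at least 5 counts over the 24 libraries was required, which 33 of the 38 genes met; Myh7, Tnnc2, Tnni1, Tnnt1 and Myoz2 did not. In contralateral fat 30 of the 33 tested genes were lower on HFD and 0 were higher, where 23% of all genes tested were called lower and 23.9% higher. The median log2 fold change (HFD over Chow) of the 33 genes was -5.64, against -0.02 for all genes. The set was chosen with earlier results of these data known, and many of these genes were tested because of their counts on Chow. Of the 18 genes with a mean of at least 5 counts in HFD contralateral fat itself, 17 were called lower and Acta1 was not.

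The lowest adjusted p-values in contralateral fat by edgeR's quasi-likelihood test were those of Ttn and Smpx. Ttn fell by 8.14 on the log2 scale (SE 1.37, adjusted p = 0.0038; mean 5.98 against 1660 CPM). Smpx fell by 2.5 (SE 0.56, adjusted p = 0.00386; 0.309 against 1.77 CPM). Myh4 fell by 11.24 (SE 2.03, adjusted p = 0.00508; 0.245 against 608 CPM). Tcap, Mylk2, Ckmt2 and Myh2 fell by 6.68, 5.64, 3.17 and 3.43 with adjusted p-values of 0.00601, 0.00701, 0.00702 and 0.00783. Atp2a1, Xirp2, Tnnt3 and Mylpf fell by 8.4, 7.68, 7.63 and 6.65 with adjusted p-values of 0.00837, 0.00851, 0.00856 and 0.0101.

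Ckm fell by 12.16 in contralateral fat (SE 2.57, adjusted p = 0.00963, edgeR), a fitted value that depends on 1 HFD count, and without HFD contralateral library 2, which held that count, the adjusted p was 0.103. Eno3 fell by 2.85 (SE 0.69, adjusted p = 0.0153; 4.58 ± 1.2 against 32.6 ± 21.7 CPM, SD, n = 4 each). The 3 genes not called were Acta1 (-1.98, SE 0.78, adjusted p = 0.081), Tnnc1 (-0.97, SE 0.52, adjusted p = 0.145) and Myoz1 (adjusted p = 0.0837).

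The HFD and Chow contralateral libraries did not overlap for 19 of the 33 genes, all lower on HFD. Of all genes tested, 20% were lower with no overlap. Some of these 19 genes held few HFD contralateral counts, as Ckm (1), Mybpc1 (2) and Tcap (4). They were tested because of their counts in other libraries, so the direction was close to fixed for them. For 13 of the 33 genes Chow contralateral library 3 was at or below the highest HFD library, whereas Chow contralateral libraries 1, 2 and 4 each exceeded every HFD contralateral library for 32 of the 33, all but Tnnc1. Without Chow contralateral library 3, 32 of the 33 genes were called lower, Acta1 among them (-2.37, adjusted p = 0.00048).

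In no tumor fat 1 of the 33 genes was called lower on HFD and 0 higher, where 9.83% and 12.3% of all genes tested were. It was Mb, at 0.596, 0.843, 0.56 and 0.895 CPM on HFD against 1.24, 1.55, 3.19 and 0.833 CPM on Chow (log2 fold change -1.25, SE 0.4, adjusted p = 0.0418, edgeR), and it was no longer called when any HFD no tumor library, or Chow no tumor library 3, was left out. The median log2 fold change of the 33 genes was -3.11 and 32 were below 0, and Chow no tumor libraries 2 and 3 held most of the Chow counts. The median was -3.37 without library 2 of these and -0.84 without library 3. At an unadjusted p under 0.05 there were 9 of the 33 genes, against 34.3% of all genes tested, and DESeq2 called 9 lower, where it called 22% of all genes in either direction. Acta1 differed by -0.28 (SE 0.91, adjusted p = 0.865; 34.5 against 41.2 CPM), Eno3 by -0.83 (SE 0.48, adjusted p = 0.272) and Ckm by -9.35 (SE 3.45, adjusted p = 0.11). Without Chow no tumor library 3, Acta1 was called higher on HFD (1.42, adjusted p = 0.00268, edgeR), as was Casq1, and no gene was called lower. In that position Acta2 also rose on HFD (0.68, SE 0.07, adjusted p = 2.16e-05), and its part in the Acta1 value was not tested.

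In peritumoral fat 1 of the 33 genes was called lower on HFD and 0 higher, where 16.6% and 15.9% of all genes tested were. It was Ldb3, at 7.34, 5.65, 4.08 and 4.94 CPM on HFD against 10.1, 14, 7.74 and 6.88 CPM on Chow (log2 fold change -0.88, SE 0.25, adjusted p = 0.0229, edgeR), with 1 HFD library above the lowest Chow library. Its adjusted p was 0.0598 to 0.0705 without HFD library 3 or 4 or Chow library 1 or 2. The median log2 fold change was -2.53, with 31 of the 33 genes below 0, and -0.47, with 25 below 0, without Chow peritumoral library 2. Without HFD peritumoral library 2 the median was -4.14. At an unadjusted p under 0.05 there were 2 of the 33 genes, against 45.3% of all genes tested. There were 16 without HFD peritumoral library 2 and 4 without Chow peritumoral library 2, and the share of all genes was not taken for these fits. DESeq2 called 4 lower (Ttn, Neb, Myl1 and Ldb3), where it called 35.3% of all genes in either direction. Acta1 differed by -0.81 (SE 1.15, adjusted p = 0.616), Eno3 by -0.89 (SE 0.75, adjusted p = 0.388) and Ckm by -3.46 (SE 2, adjusted p = 0.224). Without Chow peritumoral library 2, Acta1 and Eno3 stood above 0 (0.96 and 0.22) and were not called. Without HFD peritumoral library 2, Ckmt2 and Ldb3 were called lower.

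**Figure D5:**
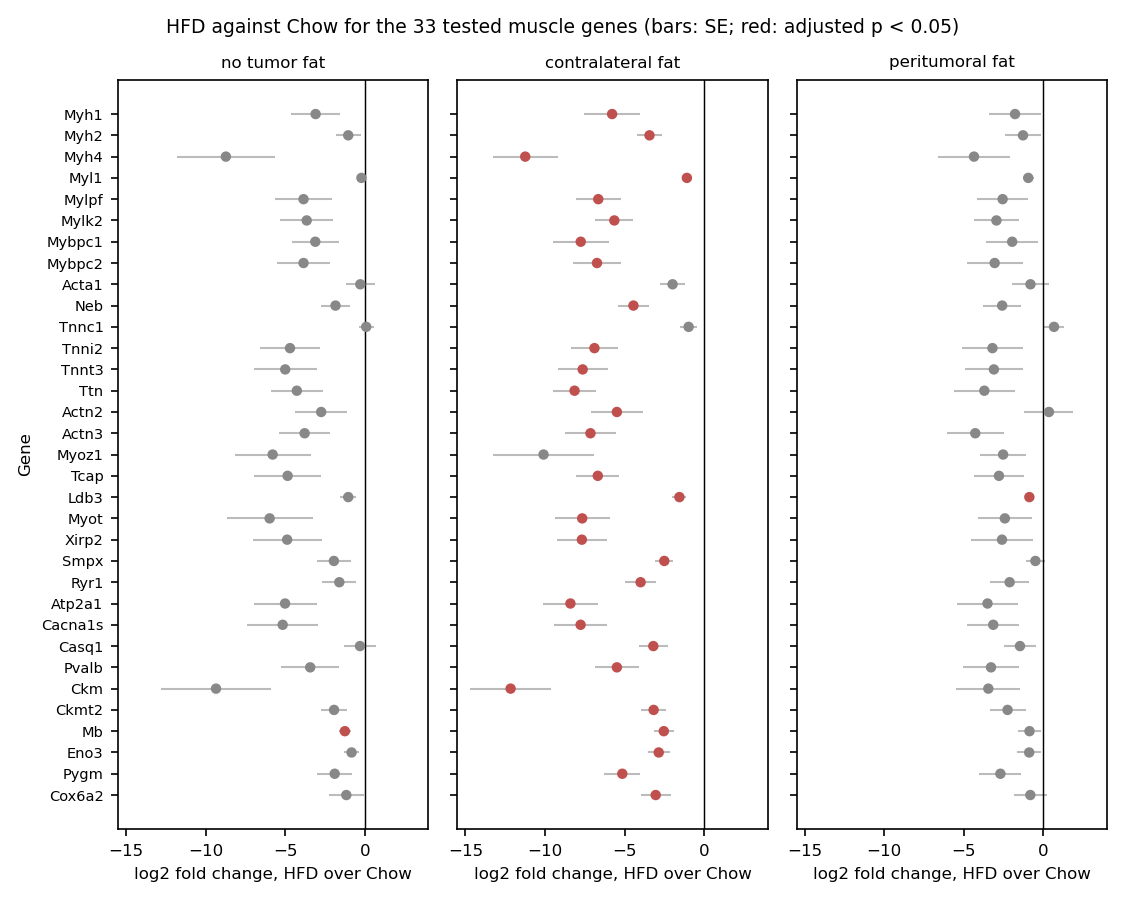
log2 fold change of HFD over Chow for the 33 tested muscle genes in no tumor, contralateral and peritumoral fat; points are edgeR estimates, bars the SE, red points have an adjusted p under 0.05. In contralateral fat all 33 points lie below 0 and 30 are red; in no tumor and peritumoral fat Mb and Ldb3 are the red points.

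The diet effects at the 3 positions were not shown to differ. A test of the difference, chosen after the data were seen and made in 1 edgeR fit over all 24 libraries, called 0 of the 33 genes for contralateral minus no tumor fat, with 0 at an unadjusted p under 0.05 (27.1% of all genes) and a lowest adjusted p of 0.186. For contralateral minus peritumoral fat it called 0, with 2 at an unadjusted p under 0.05 (22.7% of all genes) and a lowest adjusted p of 0.165. DESeq2 was not run on these differences. Of all genes tested, 3.63% were called higher and 5.22% lower against no tumor fat, and 0.455% and 1.33% against peritumoral fat. For Ttn the difference was -3.88 (SE 2.24, adjusted p = 0.275) against no tumor fat and -4.47 (SE 2.18, adjusted p = 0.231) against peritumoral fat.

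Peritumoral fat was next compared with contralateral fat on each diet. The titles carry the letter L for every peritumoral library and R for every contralateral and no tumor library, and the labels do not explain these letters. Position therefore cannot be told apart from what the letters stand for. On HFD 1 gene was called higher and 1 lower, where 15% and 10.6% of all genes tested were called. Myoz1 was 0.056, 1.18, 0.244 and 0.25 CPM in peritumoral fat, against 0 in all 4 contralateral libraries, 29 counts against 0 and at least 9.32-fold higher with 3 counts over the contralateral group as the limit (adjusted p = 0.0455, edgeR). DESeq2 gave it no adjusted p. Myl1 was 13.6, 10.9, 9.81 and 9.81 CPM in peritumoral fat, against 19.1, 13.5, 15.3 and 15.1 CPM in contralateral fat (log2 fold change -0.52, SE 0.15, adjusted p = 0.0297). Left out 1 at a time, 5 of the 8 libraries each ended the Myoz1 and Myl1 calls together (all but HFD peritumoral libraries 1 and 2 and HFD contralateral library 2), with 0 genes called without HFD contralateral library 1, 3 or 4.

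The median log2 fold change of the 33 genes in peritumoral over contralateral fat on HFD was 2.01, with 30 above 0, and HFD peritumoral library 2 held most of these counts. Without that library the median was -0.07, with 16 above 0. Ckm stood at 6.93 (SE 2.29, adjusted p = 0.0508, edgeR), and at 2.47 (adjusted p = 0.207) without it. With all libraries Eno3 at 0.72 (SE 0.38, adjusted p = 0.185) and Acta1 at -0.37 (SE 0.27, adjusted p = 0.336). That library also had the highest summed level of 8 lymph node genes in its group, 111 CPM against 10.9, 5.06 and 41.4 CPM in libraries 1, 3 and 4, and the lowest of 8 white adipocyte genes, 7660 CPM against 14300, 10000 and 10200 CPM. The part of these in the muscle values was not tested.

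On Chow 0 of the 33 genes were called between peritumoral and contralateral fat by edgeR, and 0 of all 17572 genes tested (0%). At an unadjusted p under 0.05 there was 1 muscle gene, Smpx, against 8.62% of all genes, and DESeq2 called 0, against 0.102% of all genes. The median log2 fold change was -1.53, and -3.38 without Chow peritumoral library 2. Without that library 13 of the 33 genes had an unadjusted p under 0.05 and 0 were called. The share of all genes at that unadjusted p was not taken for this fit. Acta1 differed by -1.57 (SE 1.35, adjusted p = 0.732), Eno3 by -1.26 (SE 0.9, adjusted p = 0.686) and Ckm by -1.83 (SE 1.67, adjusted p = 0.747). Each group held libraries at both extremes.

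Contralateral fat was compared with no tumor fat, the comparison of tumor bearing at a distance. On Chow 0 of the 33 genes were called by edgeR (background 3.87% higher and 2.75% lower), 1 (Eno3) had an unadjusted p under 0.05, against 26.5% of all genes, and DESeq2 called 0, against 8.79% of all genes. The median log2 fold change was 2.37, with 32 genes above 0, and 4.71 without Chow no tumor library 3. Without that library 28 of the 33 genes had an unadjusted p under 0.05, and 12 had without Chow contralateral library 3. In both fits 0 genes were called, and the share of all genes at that unadjusted p was not taken. Ckm differed by 2.85 (SE 1.74, adjusted p = 0.346), Acta1 by 2.23 (SE 1.2, adjusted p = 0.289), Eno3 by 1.96 (SE 0.78, adjusted p = 0.176) and Ttn by 3.56 (SE 1.86, adjusted p = 0.277). On HFD 0 were called by edgeR (background 2.54% higher and 2.82% lower) and 0 by DESeq2 (7.27% of all genes), with 6 of the 33 at an unadjusted p under 0.05 (22.1% of all genes) and a median of -0.04. Mybpc1 was the single gene whose groups did not overlap there (6.89% of all genes tested were lower with no overlap), at 2 counts in contralateral against 15 in no tumor fat (adjusted p = 0.072, edgeR). Acta1 differed by 0.51 (SE 0.22, adjusted p = 0.235), Eno3 by -0.08 (SE 0.17, adjusted p = 0.837) and Ckm, at 1 count in each group, by 0.

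Other muscle genes outside the set were read from lists drawn up by function. Of 15 tested genes of other sarcomere and Z disc proteins, 13 were lower and 1 higher on HFD in contralateral fat, where 23% of all genes were called lower. In no tumor fat 2 were lower and 1 higher (background 9.83% lower), and in peritumoral fat 5 were lower and 1 higher (background 16.6% lower). Some genes called lower in contralateral fat passed the count filter mainly through their Chow counts, so their direction was close to fixed. Lmod2 and Lmod3, for example, were at or below 0.125 and 0.187 CPM in every HFD contralateral library. Myom1, a titin partner of the M band, fell by 2.46 (SE 0.44, adjusted p = 0.00371, edgeR), and Pdlim3, a Z disc protein, by 1.32 (SE 0.29, adjusted p = 0.00633). The higher gene was Myom3, another M band protein. It was 10.3, 9.23, 10.3 and 10.5 CPM in HFD contralateral fat, against 2.17, 4.53, 3.67 and 4.34 CPM in Chow contralateral fat (log2 fold change 1.44, SE 0.18, adjusted p = 7.66e-05), and it was also higher on HFD in no tumor (1.73) and peritumoral fat (0.68). Myom3 was thus higher in the diet group in which Ttn was lower.

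Of 12 tested genes of calcium release and coupling, 8 were lower and 1 higher on HFD in contralateral fat (background 23% lower and 23.9% higher). In no tumor fat 1 was lower and 2 higher (background 9.83% and 12.3%), near those shares. In peritumoral fat 3 were lower and 1 higher (background 16.6% and 15.9%). Jsrp1 and Hrc, at or below 0.186 and 0.308 CPM in every HFD contralateral library, passed the count filter mainly through their Chow counts. Jph2 and Trdn, which tie the release channel to the cell membrane and to the calcium store, fell by 1.58 and 3.74 in contralateral fat (adjusted p = 0.0112 and 0.00806, edgeR). Rtn2, a reticulon, was the higher one (1.24, SE 0.16, adjusted p = 0.000189), and was also higher in no tumor (1.41) and peritumoral fat (1.11). Of 14 tested genes of muscle energy metabolism, 8 were lower in contralateral fat and 1, Ucp3, was higher (0.57, SE 0.12, adjusted p = 0.00211, edgeR). In no tumor fat 3 of these 14 were lower and 1 higher, and in peritumoral fat 4 were lower and 0 higher. The background shares at each position are the same as for the calcium genes. Ampd1, at or below 0.182 CPM in every HFD contralateral library, likewise passed the count filter mainly through its Chow counts. Pgam2, the muscle phosphoglycerate mutase, fell by 3.67 (adjusted p = 0.00776), and Gys1, a glycogen synthase that fat also uses, by 0.21 (adjusted p = 0.047).

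Of the muscle regulators, 3 of 12 were tested and 2 were lower on HFD in contralateral fat, where 23% of all genes were called lower. Mstn, myostatin, was 0.303, 0.0619, 0.308 and 0.25 CPM on HFD against 1.69, 6.75, 0 and 7.14 CPM on Chow (log2 fold change -4.03, SE 1.25, adjusted p = 0.0343, edgeR). It passed the count filter mainly through its Chow counts. Des, the intermediate filament desmin, fell by 1.39 (SE 0.36, adjusted p = 0.0174). Mef2c, the third, was even across libraries at 34.1 to 57.1 CPM. The stem cell and myoblast factors Pax7, Myod1 and Myog were at or below 0.271 CPM in every library, and the embryonic and neonatal myosins Myh3 and Myh8 at or below 0.203 CPM.

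Myl4, the light chain of embryonic muscle and the atrium, went the other way from the adult set. It was 16.1, 19.6, 18.6 and 25.1 CPM in HFD contralateral fat, against 2.51, 3.95, 3.19 and 2.49 CPM in Chow contralateral fat, and the groups did not overlap at any position. The log2 fold change was 2.43 (SE 0.17) in no tumor fat, 2.71 (SE 0.18) in contralateral fat and 1.78 (SE 0.26) in peritumoral fat, with adjusted p-values of 1.3e-06, 1.2e-06 and 0.00133 by edgeR. Ryr2, the cardiac release channel, was higher on HFD at the same 3 positions (3.48, 2.15 and 2.65, adjusted p = 0.000253, 0.035 and 0.00243). Of the cardiac list, Tnni3, the cardiac inhibitory troponin, was lower on HFD in contralateral fat, at 0.668, 0.619, 1.17 and 0.624 CPM against 1.42, 2.8, 1.84 and 1.66 CPM on Chow (log2 fold change -1.32, SE 0.31, adjusted p = 0.00435, edgeR). It was lower in peritumoral fat too (-1.17, adjusted p = 0.0104) and not called in no tumor fat (-0.07, adjusted p = 0.908). The cardiac myosin Myh6 was at or below 0.141 CPM in every library.

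Markers of other tissues near the fat pad were read beside the muscle genes. The summed level of 8 nerve and Schwann cell genes was 187, 204, 195 and 179 CPM in HFD contralateral fat and 264, 277, 254 and 253 CPM in Chow contralateral fat, with 7 of 8 genes lower on HFD by edgeR. Chow contralateral library 3, poor in muscle transcripts, was not poor in these. In peritumoral fat 6 of the 8 nerve genes were lower on HFD. In no tumor fat 0 were lower and 1 higher (background 9.83% and 12.3%). Of all genes tested, 23% were called lower and 23.9% higher on HFD in contralateral fat, and 16.6% lower in peritumoral fat. Of 7 tested mammary epithelial genes, 6 were lower on HFD in contralateral fat, 6 in peritumoral fat and 4 in no tumor fat (background 9.83%). White adipocyte genes were higher on HFD for 6 of 8 in contralateral fat and 4 of 8 in no tumor fat (background 12.3%). In peritumoral fat 1 of these 8 was higher and 1 lower (background 15.9% and 16.6%). Of 8 smooth muscle and myoepithelial genes 5 were lower on HFD in contralateral fat and 2 in peritumoral fat, with 0 higher in either. In no tumor fat 4 of these 8 were instead higher and 0 lower (background 12.3% and 9.83%). Of 6 tested genes listed for keratinocytes 2 (Krt14 and Krt5) were lower on HFD in contralateral fat, against 23% of all genes. Krt1 of that list was at or below 0.204 CPM in every library but Chow peritumoral library 3 (11.2 CPM). Whether Krt14 and Krt5 mark skin in these libraries was not tested. The lymph node genes summed to 6.98, 17.8, 12 and 174 CPM in Chow contralateral libraries 1 to 4. The part of these other tissues in the muscle results was not tested.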

How the data were processed

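RNA was sequenced from 24 libraries in 6 groups of 4, taken from the sample labels. The values were whole-number, unnormalized counts per gene deposited by the authors in 1 matrix; 0 columns of values were left unmatched. Per the submitters' processing notes TopHat, DESeq and the build mm10 were used. No source used here gives their versions or the strand of counting, and 13 of the 38 genes share exon bases with a gene on the other strand. Symbols came from GENCODE and promoters from RefSeq.

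CPM used TMM factors fitted to the 24 libraries together. Each of 7 comparisons was fitted on its own 8 libraries by robust quasi-likelihood in edgeR (4.0.16, with TMM; R 4.3.3). Genes needed a mean count of 5 over all libraries, a filter blind to group, and Benjamini-Hochberg adjustment ran over all genes tested (threshold 0.05). The SE is the absolute log2 fold change over the square root of F. Alternatives were DESeq2 1.42.0, RLE factors, no filter, filterByExpr (minimum count 10), all libraries in 1 fit, a replicate block and leaving out each library. The medians and unadjusted counts without single libraries were chosen after seeing the data. Fits were tested on simulated counts. Folds against groups at 0 were bounded with 3 counts over the group. Shares have exact (Clopper-Pearson) 95% intervals.

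The genes and the other lists were chosen with earlier results of these data known. By rule every gene of the set is given by levels, and fold changes for called genes (up to 12 per comparison) and for Acta1, Ckm and Eno3. Genes of other lists were named by mean count or as called; others (Ttn, Mybpc1, Myom3, Jph2, Trdn, Pgam2, Ucp3 and Tnni3 among them) were named after their values were seen.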

Additional observations from a re-analysis of the deposited data

Results flagged for a closer look

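Single libraries stood apart from the other 3 of their group, by a gap that took up most of the range of the group. For the summed CPM of the 38 genes, the gap made up 0.935 of the range for HFD peritumoral library 2, 0.835 for HFD contralateral library 4, 0.883 for Chow no tumor library 3 and 0.857 for Chow peritumoral library 2, each the highest of its group. Of the 33 tested genes, 22 had such a library in HFD peritumoral fat, 7 in HFD no tumor fat and 3 in HFD contralateral fat, against 21 in Chow peritumoral fat, 25 in Chow no tumor fat and 2 in Chow contralateral fat. Chance would flag about 1 in 20 groups if levels were normally distributed, which was not tested for these CPM. A single count can be enough for a flag. For Ckm the gap made up 1.0 of the range in HFD no tumor and in HFD contralateral fat, with 1 count in each group. The numbers of flagged genes therefore cannot be set against that rate, and the genes of a library are not independent of each other.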

How the results depend on the processing

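In contralateral fat the count of muscle genes called between HFD and Chow stayed between 22 and 32 under every alternative, all lower on HFD. In no tumor fat it was 9 with DESeq2, 0 with all 24 libraries in 1 fit, 5 with the replicate block and 0 to 2 with 1 library left out, against 1. In peritumoral fat it was 4 with DESeq2, 3 with all 24 libraries in 1 fit (Neb, Myl1 and Actn3, without Ldb3 at an adjusted p of 0.109), 18 with the replicate block and 0 to 2 with 1 library left out, against 1. For peritumoral against contralateral fat on HFD it was 1 with DESeq2, 1 with filterByExpr (which kept 9 of the genes), 0 with all 24 libraries in 1 fit, 6 with the replicate block and 0 to 4 with 1 library left out, against 2. For contralateral against no tumor fat on HFD it was 0 to 1 with 1 library left out. The cause of these shifts was not tested. Libraries of the same number on HFD and on Chow came from different mice, and the labels name nothing else that they share. Calls between diets with the replicate block therefore rest on pairs that the labels do not give. Acta1 between HFD and Chow stood above 0 with the replicate block, at 0.51 in no tumor and 0.35 in peritumoral fat. With 1 library left out it ran from -0.61 to 1.42 in no tumor fat and from -1.2 to 0.96 in peritumoral fat, and Eno3 from -1.47 to 0.22 in peritumoral fat. The highest of these came without Chow no tumor library 3 or Chow peritumoral library 2. Libraries of the same number did not consistently deviate together (correlations of -0.361 to 0.372, above 0.1 for every pair in no comparison), so the numbers were not taken as pairs. Between peritumoral and contralateral fat on HFD they were -0.104, 0.121, 0.234 and 0.372 for numbers 1 to 4. On 1 diet, titles of peritumoral and contralateral libraries of the same number differ only in the letters L and R. The labels do not state whether such libraries came from the same mouse, and these correlations cannot settle it. With group means of a few counts, as for Ckm on HFD, the size of a fold change is limited by depth.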
